A study of Mus musculus with 2 samples.

Results

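Antisense RNAs with at least 300 expected counts were described in the hindbrain of newborn mice, each beside the protein-coding gene that lies across from it on the other strand. They were chosen by 3 criteria: the gene type antisense in GENCODE release M21, a place on an autosome, and a mean expected count of at least 300 over both libraries of the series, with small nucleolar RNA host genes (Snhg) left out. Of 2017 autosomal antisense genes, 30 met the rule, out of 43346 mouse genes in the tables. The count chose the members, so their high counts are a description and not a finding. At the lower edge, Trmt61b (328 counts), 4732440D04Rik (321.5) and Gm26982 (315.5) lay just inside, and Gm2415 (297.5), Gm10516 (289) and Gm13375 (277) just outside.

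The series holds 2 libraries of total RNA from hindbrain (cerebellum, pons and medulla) at postnatal day 0, from healthy mice of the strain B6NTac;B6NCrl/Lap with males and females pooled. Replicate 1 came from 15 mice, and the labels give no number for the pool of replicate 2. The labels describe the 2 as independent isolates of hindbrain tissue but give them a common donor identifier. Their differences may be partly technical. With a single group there is no test between conditions and no p-value. Marker genes of hindbrain neurons, granule cells, Purkinje cells, glia, vessels, meninges, choroid plexus and blood were all present, since each of the 20 examined reached 1 TPM in both libraries. The forebrain factor Emx1 had 0.17 TPM in replicate 1 and 0.10 in replicate 2.

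Natural antisense RNAs are transcribed from the strand opposite to a coding gene and often start at the coding gene's own promoter, in the other direction. Some act on the chromatin of their neighbours: Kcnq1ot1, made from the paternal chromosome, silences a cluster of imprinted genes in cis. Others, such as Tug1, work away from their locus or have no settled role. Many are annotated only by a clone name, and a "host" below means no more than the overlapping coding gene.

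As a group the 30 antisense RNAs were scarce. They held 39529 of the 53617712 expected counts on mouse genes in replicate 1 (0.0737%) and 57407 of 76299126 in replicate 2 (0.0752%). Within the antisense class they took most of the signal, with 69.7% and 68.1% of the counts of the 2017 genes, and Tug1 alone gave 34.4% and 31.0% of the members' counts. Only 377 antisense genes had a mean count of at least 10. Per length, the members' mean TPM (a count divided by effective length and scaled to a fixed total) ran from 0.795 to 40.7 with a median of 3.03, and 26 of 30 reached 1 TPM in both libraries. That median lay above the level of 53.99% of autosomal coding genes, including those at 0. TPM values below are given for replicate 1 and then replicate 2. TPM has a fixed sum, and a typical autosomal gene with at least 300 counts was 1.44-fold lower in replicate 2 on this scale, so comparisons between libraries rest on scaled counts.

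The members lay mostly at the ends of coding genes rather than inside them. Of the 30, 29 overlapped a coding gene on the other strand, and the 29 hosts were all different. The exception was C130021I20Rik, which overlapped none although it is typed as antisense: it started 682 bases from the start of Lmx1b, pointing away from it. An overlap was the rule for the whole class, at 90.4% of the 2017 antisense genes. Among the 29 pairs, 13 were head to head (44.8%), with the 2 starts inside each other's gene body, against 23.4% of the 1812 autosomal antisense genes with a classified host. Another 9 pairs were tail to tail (31.0% against 15.8%). Only 5 antisense genes lay wholly inside their host (17.2% against 57.3%), and in 2 pairs the host lay inside the antisense gene (6.90% against 3.53%).

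A coding gene started on the other strand within 1 kb of 16 of the 30 antisense starts (53.3%). The same was true of 22.7% of all autosomal antisense genes and of 17.7% of those with a mean count under 10. Counting only hosts, 7 overlapping pairs had both starts within 1 kb, 6 within 500 bases and 9 within 2 kb. In 10 of the 16 the divergent transcripts overlapped, and in 6 a gap separated the starts. The closest overlapping starts were those of 1600020E01Rik and Pcbp1 (74 bases), 1110002L01Rik and Asxl2 (154), Gm26782 and Tep1 (236), A730056A06Rik and Rgma (265) and 2810468N07Rik and Sox8 (328). The gapped pairs were Tmem147os and Tmem147 (39 bases), Gm10501 and Lsm2 (74), Gm4673 and Usf2 (106), E130307A14Rik and Rev3l (111), Brip1os and Brip1 (177), and C130021I20Rik and Lmx1b. In 9 of the 16 the gene at the start was not the host with the longest overlap, or there was no host. Annotated starts carry their own error: 1600020E01Rik starts 1009 bases from Pcbp1 in RefSeq.

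**Figure D1:**
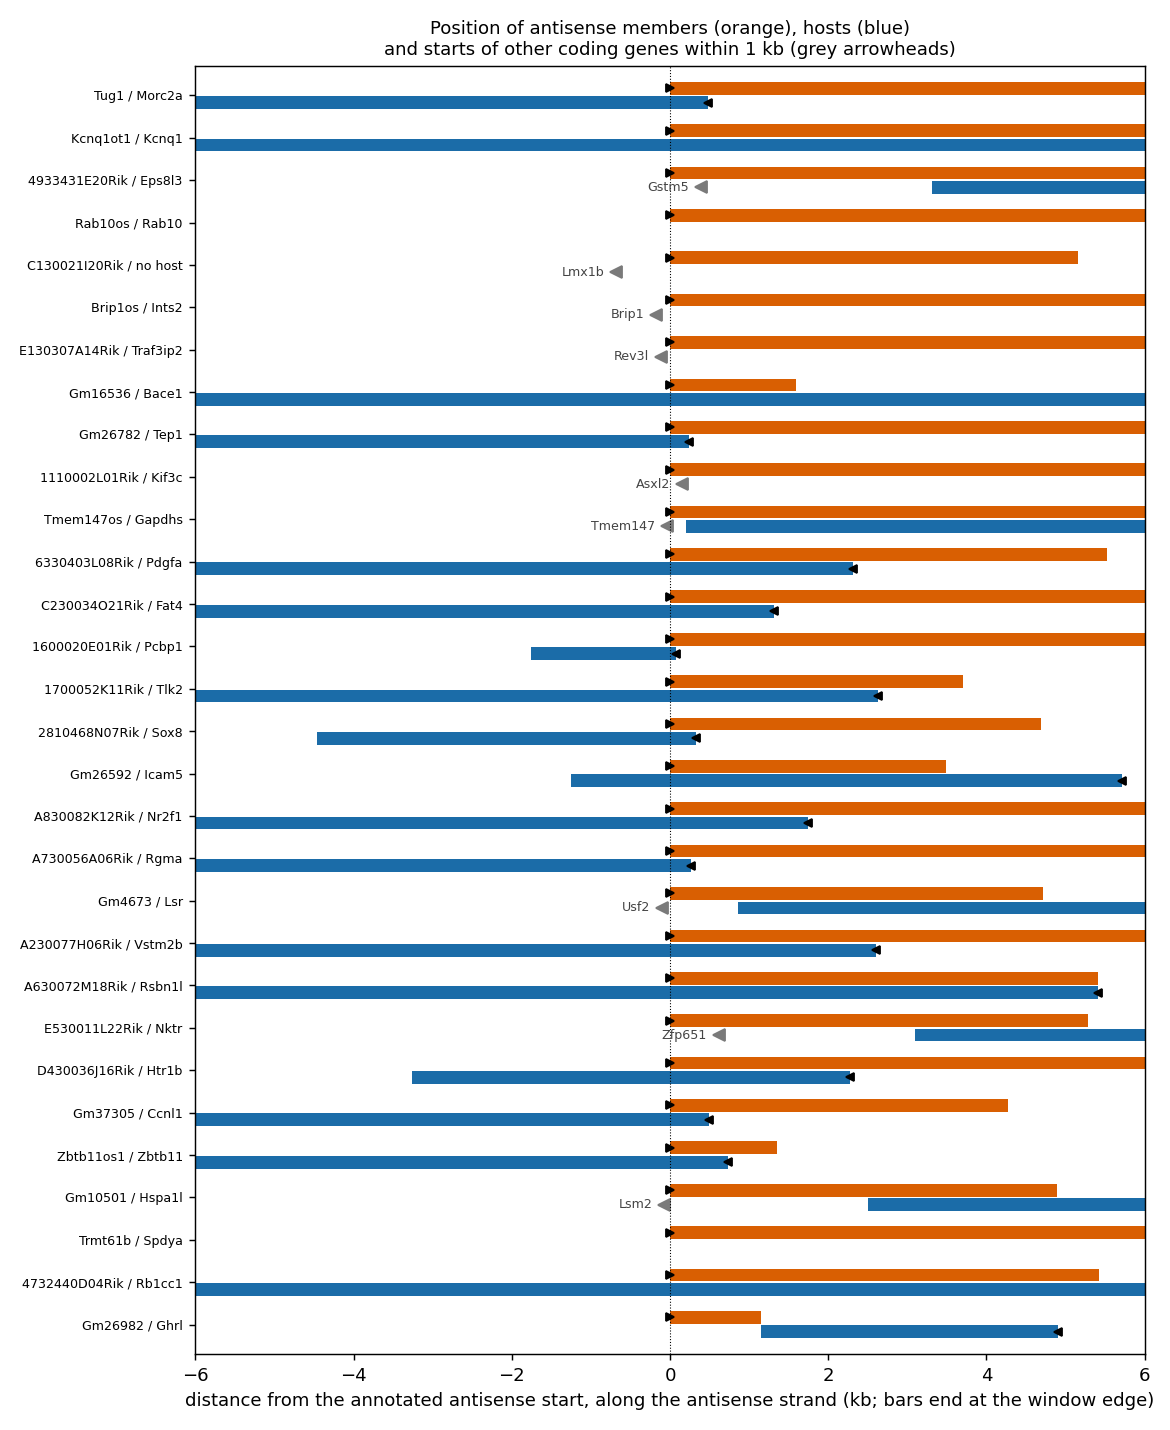
Position of the 30 antisense genes (orange, from 0 to the right) relative to their hosts (blue) and to the starts of other coding genes within 1 kb (grey arrowheads with names). The x axis is the distance in kb from the annotated antisense start along the antisense strand, black arrowheads mark starts, and bars are clipped at the window edge; 16 members have a coding start within 1 kb of 0.

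RefSeq held 22 of the 30 members, all 22 as long non-coding RNAs. The list included 2810468N07Rik under its later name Cerox1 and A630072M18Rik, a synonym of which is Aptr. For 19 members RefSeq also gave start windows, from 250 bases before to 50 bases after the RNA start (GRCm38.p6). There were 23 windows in all, and the first listed was used for each member. These 19 windows had a median of 22 CG dinucleotides, against 7 over 32841 RefSeq promoters of the same length (quartiles 3 and 20). The 32841 were not chosen by count as the members were, so this contrast and the motif shares below are descriptions only. Split by M21 starts, the median was 28 for the 10 members with a coding start within 1 kb and 17 for the other 9. The windows sit at RefSeq starts, by which 3 members change sides. C230034O21Rik (17 CG, 21 bases from Fat4) and A230077H06Rik (9 CG, 4 bases from Vstm2b) would count as near. The window of 1600020E01Rik (28 CG, 1009 bases from Pcbp1) would not, so nothing is read from the split. The GC box GGGCGG, searched on both strands, was in 13 of 19 members against 35.7% of all promoters, CCAAT was in 11 of 19 against 37.4%, and TATAAA was in 0 of 19 against 13.6%. CG dinucleotides and GC boxes overlap, so these are not separate features, and a match is no evidence of binding.

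Windows of 3 divergent members that differ in CG content are shown, at 264 to 682 bases from a coding start. CG is in capitals, and each runs from 5′ to 3′ along the antisense RNA. Tug1 has 37 CG (chr11:3648765-3649064, minus strand, 377 bases from the start of Morc2a), C130021I20Rik has 34 (chr2:33640943-33641242, plus strand, 682 bases from Lmx1b), and Gm26782 has 10 (chr14:50870046-50870345, plus strand, 264 bases from Tep1).
Tug1: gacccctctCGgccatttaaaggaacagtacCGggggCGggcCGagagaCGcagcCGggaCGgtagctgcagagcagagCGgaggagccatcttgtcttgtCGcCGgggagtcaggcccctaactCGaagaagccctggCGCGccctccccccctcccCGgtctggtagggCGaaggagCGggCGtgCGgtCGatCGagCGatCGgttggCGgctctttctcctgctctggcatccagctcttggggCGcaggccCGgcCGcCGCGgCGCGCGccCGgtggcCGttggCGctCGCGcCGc
C130021I20Rik: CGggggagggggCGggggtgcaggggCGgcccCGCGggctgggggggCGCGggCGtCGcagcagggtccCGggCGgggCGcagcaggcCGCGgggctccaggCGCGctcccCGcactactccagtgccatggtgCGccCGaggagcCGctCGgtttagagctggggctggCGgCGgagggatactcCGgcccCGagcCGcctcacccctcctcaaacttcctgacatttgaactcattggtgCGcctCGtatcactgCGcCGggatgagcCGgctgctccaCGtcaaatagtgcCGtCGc
Gm26782: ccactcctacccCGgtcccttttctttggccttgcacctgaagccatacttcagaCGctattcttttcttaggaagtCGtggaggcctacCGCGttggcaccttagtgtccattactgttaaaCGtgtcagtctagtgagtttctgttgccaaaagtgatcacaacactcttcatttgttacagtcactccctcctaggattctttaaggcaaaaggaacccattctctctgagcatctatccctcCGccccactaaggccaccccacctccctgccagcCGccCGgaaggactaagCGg
The Tug1 and C130021I20Rik windows are 71.3% and 73.3% G or C, and that of Gm26782 is 51.7%, below the median of 52.7% over all promoters. The windows of C130021I20Rik and Kcnq1ot1 were picked after their values were seen, so the contrast in CG content is a description only.

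Kcnq1ot1 had no coding start near it, the nearest on the other strand being Slc22a18 at 177187 bases. Its window (chr7:143296498-143296797, minus strand) holds 9 CG and 3 CCAAT matches, the most CCAAT matches of any member, all before the RNA start. CCAAT is in capitals here.
Kcnq1ot1: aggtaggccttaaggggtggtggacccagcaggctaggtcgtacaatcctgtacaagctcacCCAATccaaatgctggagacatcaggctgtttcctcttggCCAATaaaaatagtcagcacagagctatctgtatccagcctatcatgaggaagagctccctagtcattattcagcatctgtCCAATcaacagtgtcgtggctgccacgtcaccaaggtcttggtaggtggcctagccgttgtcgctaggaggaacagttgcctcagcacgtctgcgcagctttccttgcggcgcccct
The remaining members with windows had 0 or 1 CCAAT match, on either strand.

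Tug1, a long non-coding RNA known from the developing retina, was the best-counted member (chr11:3639785-3649673, minus strand). It had 13587 expected counts in replicate 1 and 17771 in replicate 2, at 49.47 and 32.01 TPM. Its head-to-head neighbour Morc2a, a chromatin ATPase, had 3204 and 4402 counts at 10.41 and 6.89 TPM. Per length Tug1 was thus 4.75-fold and 4.65-fold above Morc2a. The bases shared by the exons of both genes numbered 483, all in untranslated parts of Morc2a. Tug1 was also the only member with a posterior standard deviation of its count above 0 (0.40 and 1.54). That column is the tables' own estimate of how uncertain the division of reads among genes is. Of its 5 annotated transcripts, the best-counted took 52.7% and 59.3% of the counts.

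Kcnq1ot1 ranked second by count and near the bottom by TPM (chr7:143203458-143296549, minus strand). It had 5954 and 11347 counts, spread over an unspliced RNA with an effective length of 84081 bases in replicate 1, which gave 0.86 and 0.82 TPM. Kcnq1, a potassium channel gene in whose body it lies, had 74 and 126 counts at 0.33 and 0.36 TPM. The antisense RNA was therefore 2.61-fold and 2.28-fold above its host per length, and 80.5-fold and 90.1-fold above it by count. Both genes had more scaled counts in replicate 2, with log2 ratios (replicate 2 over replicate 1) of 0.42 for Kcnq1ot1 and 0.25 for Kcnq1. Their exons share 121 bases, all coding in Kcnq1 (chr7:143261256-143261376, minus strand), shown as read in Kcnq1ot1.
Kcnq1ot1 across Kcnq1: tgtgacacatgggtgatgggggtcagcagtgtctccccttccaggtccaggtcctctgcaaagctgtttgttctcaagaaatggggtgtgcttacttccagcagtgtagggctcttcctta
The posterior standard deviation was 0 for both genes in both libraries.

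Exons of the 2 partners in M21 overlapped in 29 of 29 pairs, by 3 to 5142 bases with a median of 483. The counts were made on M4 models, which can differ, so some shared bases may lie outside what was counted. Kcnq1ot1 is 84395 bases long there and 93092 in M21, and E530011L22Rik 3304 against 5282 exonic bases. In 18 pairs coding sequence of the host was involved and in 11 pairs it was not. The shared bases of the 11 were annotated as untranslated, except that for 1700052K11Rik and Tlk2 only 634 of 775 were. The libraries are stranded per the labels, and no source used here says if counting was by strand. The posterior standard deviation was 0 in both libraries for 29 of 30 members and for all 29 hosts, and 59 of 60 member counts were whole within 0.005. Over all genes with at least 300 counts, it was 0 for 94.0% of 1197 genes that shared at least 100 exon bases with a gene on the opposite strand only. It was 0 for 92.5% of 10141 genes that shared none, but for 26.0% of 208 genes that shared them on the same strand only.

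Gm16536, which lies inside Bace1, shows such a shared exon on a small scale. Bace1 encodes the β-secretase that cuts the amyloid precursor protein. Gm16536 is an unspliced gene of 1589 bases (chr9:45856769-45858357, minus strand) and shares 135 coding bases with Bace1. It had 1035 and 1217 counts at 9.91 and 5.69 TPM, against 6207 and 8013 counts at 25.74 and 14.76 TPM for Bace1. The antisense RNA stood at 38.5% and 38.6% of the TPM of Bace1. The 75 of those bases that are not annotated as untranslated in any Bace1 transcript (chr9:45857174-45857248) read as follows in the antisense direction.
Gm16536 across Bace1: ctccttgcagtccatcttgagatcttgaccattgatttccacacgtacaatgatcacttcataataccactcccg

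By TPM, 10 of the 29 antisense RNAs exceeded their host in both libraries, 18 were below it in both, and A630072M18Rik was below Rsbn1l in replicate 1 (0.70 against 1.1 TPM) and above it in replicate 2 (0.89 against 0.70). By count, 9 exceeded the host in both. Over the 1648 autosomal antisense genes with a host, where at least 1 of the pair had a mean count of 10, the shares were 1.64% by TPM and 1.46% by count. The rule selected on the antisense count, so nothing is read from the excess. The median log2 TPM ratio of antisense to host, with 0.1 added to each TPM, was −1.21 (2.31-fold lower) over the 29 pairs, and −5.29 over the 1648. Setting the 3 hosts of under 3 counts at a floor of 3 counts per library also gives −1.21, as it must, since these pairs stay above the median. Hosts had at least 300 counts in 22 pairs and fewer in 7, and those 7 are all among the 10 pairs in which the antisense RNA was higher.

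**Figure D2:**
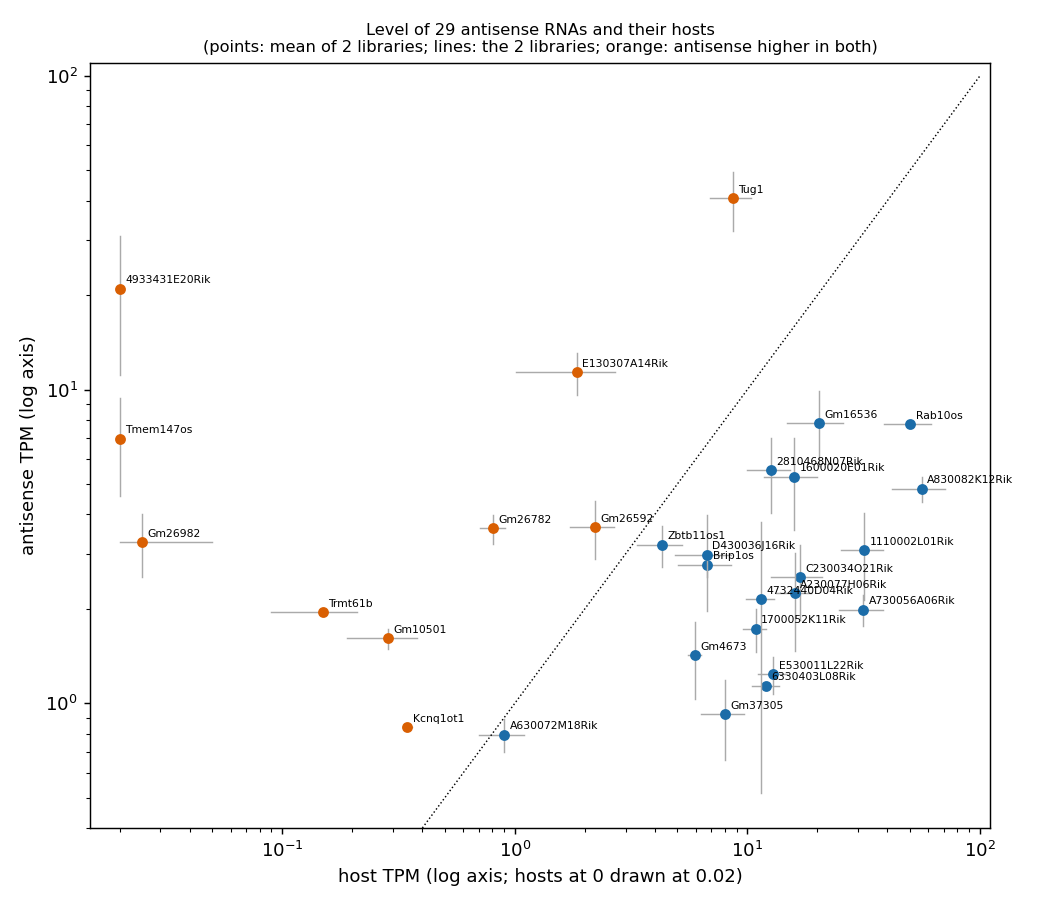
TPM of 29 antisense RNAs (y axis) against their hosts (x axis), both log scales, with points at the mean of 2 libraries and lines joining the 2 values. The 10 orange points lie above the diagonal in both libraries, and 3 of them sit at the left edge, where the host had at most 2 counts.

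In 3 pairs the host was at or next to 0. Eps8l3, a relative of the actin regulator Eps8, and Gapdhs, the sperm form of the glycolytic enzyme GAPDH, had 0 counts in both libraries, which allows up to 3 counts in each. Ghrl, the ghrelin gene, had 0 and 2 counts. Across from Eps8l3, 4933431E20Rik had 3520 and 4094 counts at 30.81 and 11.14 TPM. Its start lay 392 bases inside Gstm5, a glutathione transferase gene with 2427 and 3347 counts at 49.98 and 31.48 TPM. Across from Gapdhs, Tmem147os had 740 and 742 counts at 9.39 and 4.58 TPM, and its divergent neighbour Tmem147, a membrane protein gene, had 53.55 and 40.88 TPM. Gm26982, which shares 3 exon bases with Ghrl, had 275 and 356 counts at 4.01 and 2.52 TPM. Against the coding gene at their start, in place of the host, 4933431E20Rik and Tmem147os were the lower of the pair by TPM. By count, 4933431E20Rik was above Gstm5 in both libraries, and Tmem147os was below Tmem147 (2430 and 3867 counts).

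A further 3 antisense RNAs stood above hosts of low count. E130307A14Rik had 991 and 1403 counts at 13.08 and 9.61 TPM, while Traf3ip2, an adaptor of interleukin-17 signalling, had 113 and 84 counts at 2.69 and 1.01 TPM. Its start faced Rev3l, the catalytic subunit of a translesion DNA polymerase, which had 29.28 and 17.09 TPM. Gm10501 had 268 and 468 counts at 1.73 and 1.49 TPM against 67 and 67 counts at 0.38 and 0.19 TPM for Hspa1l, a testis-enriched heat shock protein gene. Trmt61b, typed as antisense here although it bears the symbol of a tRNA methyltransferase, had 268 and 388 counts at 1.92 and 1.99 TPM. Its host Spdya, a cell cycle activator of germ cells, had 27 and 24 counts at 0.21 and 0.09 TPM. In all 3 the antisense range lay wholly above that of the host.

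Where the host was well counted, an antisense RNA exceeded it per length in 3 pairs. Besides Tug1, Gm26782 had 682 and 1067 counts at 3.99 and 3.23 TPM, 4.38-fold and 4.55-fold above Tep1 (588 and 929 counts, 0.91 and 0.71 TPM), a telomerase- and vault-associated protein gene. Gm26592, wholly inside Icam5, had 4.41 and 2.88 TPM against 2.68 and 1.73, and its counts (511 and 683) were below those of Icam5 (585 and 768). Icam5 encodes a neuronal adhesion molecule known best from the forebrain, and all 791 shared exon bases are coding. Per length Gm26592 was 1.65-fold and 1.66-fold above Icam5.

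**Figure D3:**
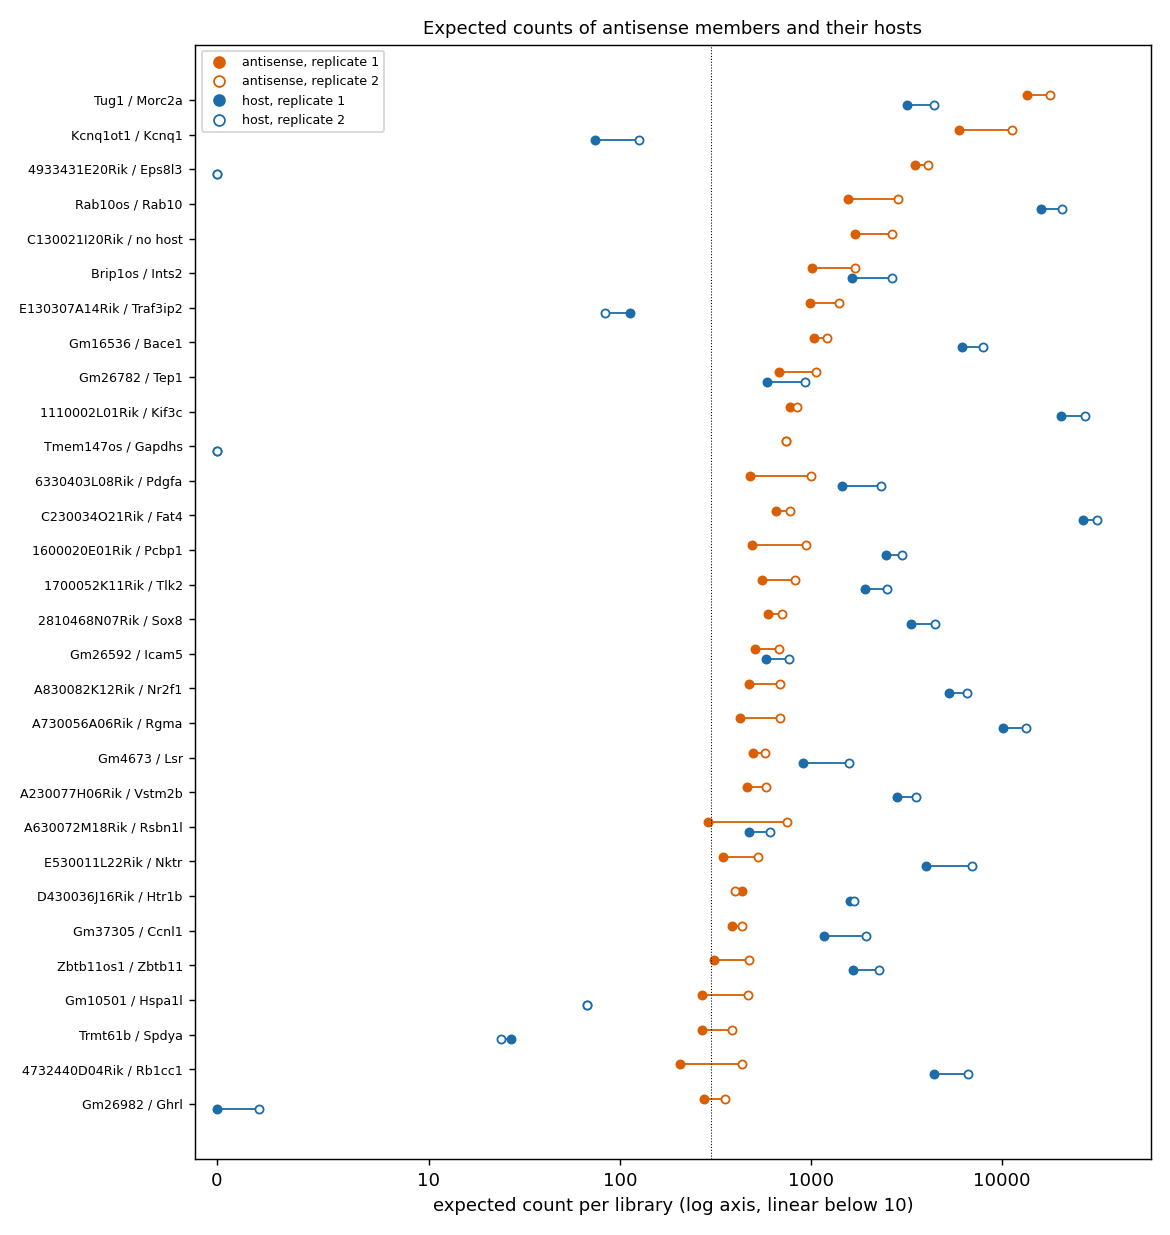
Expected counts of each antisense member (orange) and its host (blue) in replicate 1 (filled) and replicate 2 (open), on a log axis that is linear below 10. The dotted line marks 300 counts; 22 hosts lie above it on average, and Eps8l3, Gapdhs and Ghrl lie at 0 to 2.

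Developmental regulators were among the genes next to these RNAs. By lists of symbol prefixes, 3 of the 39 hosts and start neighbours were developmental transcription factors (Lmx1b, Nr2f1 and Sox8). Kcnq1 alone fell on the list for synapse, channel and adhesion genes, whose prefixes do not cover Icam5, Fat4 or Htr1b. No share over all coding genes was computed, so nothing is read from either count. Of the 3 RNAs beside these transcription factors, C130021I20Rik at Lmx1b was the strongest, with 1710 and 2648 counts at 9.71 and 6.75 TPM (chr2:33641193-33646354, plus strand). Lmx1b, a LIM homeobox factor needed by serotonin neurons, had 2091 and 2372 counts at 5.89 and 3.31 TPM. The antisense-typed RNA was therefore above Lmx1b per length in both libraries. By M21 this pair shares no exon, so no base lies in exons of both genes.

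A830082K12Rik and 2810468N07Rik were below their factors. A830082K12Rik had 477 and 690 counts at 4.39 and 5.27 TPM, and Nr2f1, an orphan nuclear receptor that patterns the brain, had 5316 and 6543 counts at 70.75 and 41.88 TPM. 2810468N07Rik (Cerox1) had 594 and 705 counts at 7.01 and 4.05 TPM, which was 46.1% and 40.5% of the TPM of Sox8. Sox8, a factor of the glial lineage, had 3344 and 4455 counts at 15.20 and 10.01 TPM.

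In the next 5 pairs, grouped after their values were seen, the host encodes a receptor, ligand or cell surface protein and had the higher TPM in both libraries. D430036J16Rik had 434 and 400 counts at 3.98 and 1.97 TPM, against 1603 and 1677 counts at 8.48 and 4.91 TPM for Htr1b, a serotonin receptor gene. All 852 shared exon bases are in the coding sequence of Htr1b. 6330403L08Rik had 482 and 997 counts at 1.13 and 1.15 TPM, and its host Pdgfa, a growth factor for oligodendrocyte precursors, 1457 and 2320 counts at 13.70 and 10.43 TPM. A730056A06Rik, which begins 265 bases inside the guidance gene Rgma, had 427 and 690 counts at 2.22 and 1.76 TPM. Rgma had 10118 and 13326 counts at 38.36 and 24.69 TPM, so the antisense RNA stood at 5.79% and 7.13% of it. C230034O21Rik had 660 and 778 counts at 3.20 and 1.85 TPM, next to 26535 and 31580 counts at 20.92 and 12.64 TPM for Fat4, a giant cadherin of planar cell polarity. Gm4673 had 500 and 574 counts at 1.82 and 1.03 TPM, and Lsr, a protein of tricellular junctions, 908 and 1587 counts at 6.34 and 5.56 TPM.

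A further 5 pairs, also grouped after their values were seen, had a host with an intracellular role and a higher TPM than the antisense RNA. Rab10os had 1574 and 2848 counts at 7.71 and 7.80 TPM, and Rab10, a small GTPase of membrane traffic, 16115 and 20574 counts at 61.55 and 38.72 TPM. 1110002L01Rik had 775 and 850 counts at 4.03 and 2.13 TPM across from Kif3c, a kinesin motor, with 20453 and 27335 counts at 38.21 and 25.24 TPM. At its start lay Asxl2, a Polycomb-group gene at 3.59 and 2.77 TPM, close to its own level. 1600020E01Rik had 491 and 940 counts at 7 and 3.56 TPM beside the RNA-binding protein gene Pcbp1 (19.90 and 11.81 TPM). Brip1os had 1017 and 1712 counts at 3.02 and 2.52 TPM, below Ints2 of the Integrator complex (8.47 and 5.01 TPM) and above the helicase gene Brip1 at its start (0.27 and 0.20 TPM). Zbtb11os1, with 311 and 475 counts at 3.67 and 2.73 TPM, came nearest to its host among the lower members, at 70.2% and 81.5% of the TPM of the zinc finger gene Zbtb11.

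The last 6 members ranged from 0.52 to 3.78 TPM in single libraries. 1700052K11Rik had 555 and 822 counts, 16.6% and 15.2% of the TPM of Tlk2, a chromatin assembly kinase. A230077H06Rik had 463 and 586 counts, 16.1% and 11.1% of the TPM of Vstm2b. E530011L22Rik had 345 and 532 counts across from Nktr, and Gm37305 had 386 and 435 counts at 12.3% and 10.5% of the TPM of the cyclin gene Ccnl1. A630072M18Rik had 291 and 752 counts, and 4732440D04Rik had 206 and 437 counts inside Rb1cc1, an autophagy gene at 13.04 and 9.83 TPM.

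Between the libraries the median of the members was level, while single members spread to both sides. The median log2 ratio of TMM-scaled counts, replicate 2 over replicate 1, was 0.02 over the 30, with 16 higher and 14 lower, and −0.01 over 11568 autosomal genes with at least 300 counts. Past 1.5-fold were 2 of 30 members (6.67%), against 6.69% of those genes (4.04% higher and 2.65% lower in replicate 2). Among 5498 genes with mean counts of 300 to 2000, 12.9% were past it, as were 2 of the 25 members in that band. With a minimum of 100 counts, 31 of 93 antisense genes were past it, against 11.9% of 13462 autosomal genes. The share was thus near or below the background for the members. It was above it for the antisense genes with at least 100 counts, but these sets differ in count. At least 300 counts were reached by 30 of the 93 antisense genes and by 11568 of the 13462 genes, so nothing is read from that excess. Fewer members than genes lay close to 0: within 0.25 on the log2 scale were 14 of 30 members, against 68.0% of the 11568 genes. That comparison was not matched for count. In tissue pools, a difference in the number of cells of a type and a difference in RNA per cell cannot be told apart.

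A630072M18Rik (Aptr) was 1.81-fold higher in replicate 2, with a log2 ratio of 0.86 and a counting standard error of 0.10. Its host Rsbn1l, with 473 and 609 counts, had a log2 ratio of −0.14, although 5142 of the 5410 bases of the antisense exon lie across from exons of Rsbn1l. D430036J16Rik was 1.54-fold lower in replicate 2 (−0.62, counting standard error 0.10), and Htr1b was lower as well (−0.44). It was the only member with fewer counts in the deeper library. Just short of the threshold were 4732440D04Rik (0.57) and 6330403L08Rik (0.54) above 0 and Tmem147os (−0.50) below it. Counting error alone gave standard errors of 0.02 to 0.12, and that of Kcnq1ot1 (0.42) was 0.02.

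None of the 22 hosts with at least 300 counts was past 1.5-fold, and their median log2 ratio was −0.10. Host and antisense moved in the same direction in 13 of these 22 pairs. Across the 22 pairs Spearman's rho between the ratios was 0.09 and Pearson's r 0.19, and across all 29 they were 0.00 and 0.04. Every pair shares the same 2 libraries, so these are descriptions only. Pairs on the same side of 0 included Tug1 and Morc2a (−0.12 and −0.05), C230034O21Rik and Fat4 (−0.27 and −0.26) and Gm26782 and Tep1 (0.14 and 0.15). Gm4673 (−0.31) and Lsr (0.30), 1600020E01Rik (0.43) and Pcbp1 (−0.23), and Gm37305 (−0.34) and Ccnl1 (0.21) lay on opposite sides.

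**Figure D4:**
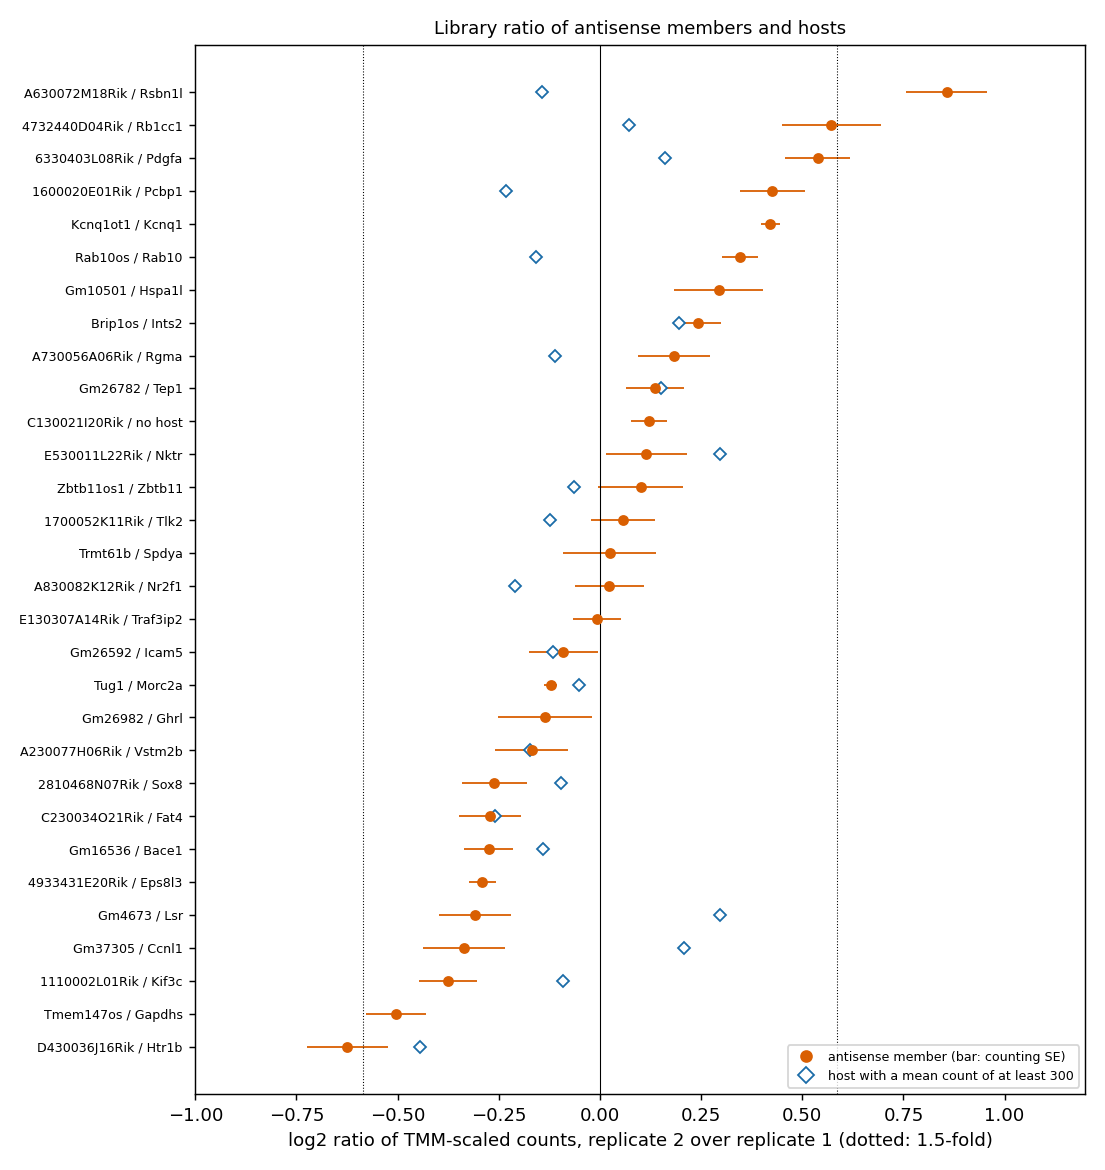
Log2 ratio of scaled counts, replicate 2 over replicate 1, for each antisense member (orange, bars: counting standard error) and for its host where that has at least 300 counts (blue diamonds). Dotted lines mark 1.5-fold; A630072M18Rik and D430036J16Rik are the 2 members past it, and no host is.

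TPM gave another picture of the same libraries. Counts were higher in replicate 2, the deeper library, for 29 of 30 members, while TPM was higher for only 5, and 15 members were past 1.5-fold by TPM, all lower in replicate 2. By TPM, 40.8% of the 11568 autosomal genes with at least 300 counts were past it as lower and 1.17% as higher. Besides the shared 1.44-fold shift, the effective length (the annotated length less the fragment length, averaged over the isoforms found) moved by more than 1.2-fold in 6 members. The extreme was 4732440D04Rik, whose effective length went from 666 to 5132 bases: its counts went from 206 to 437 and its TPM from 3.78 to 0.52. A short transcript of 413 bases was given 88.7% of the gene's TPM in replicate 1 and 0% in replicate 2. The long transcript of 5428 bases held 86.8% and 100% of its counts. For 1600020E01Rik the effective length was 857 and 1597 bases and for 4933431E20Rik 1395 and 2223. The TPM of both was lower in replicate 2, while the log2 ratio of scaled counts was 0.43 for 1600020E01Rik and −0.29 for 4933431E20Rik. It was shorter in replicate 2 for A830082K12Rik (1326 and 793) and Trmt61b (1701 and 1179), which are among the 5 members with a higher TPM there. The 14 members with a single annotated transcript cannot shift in this way, and 8 members were unspliced.

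**Figure D5:**
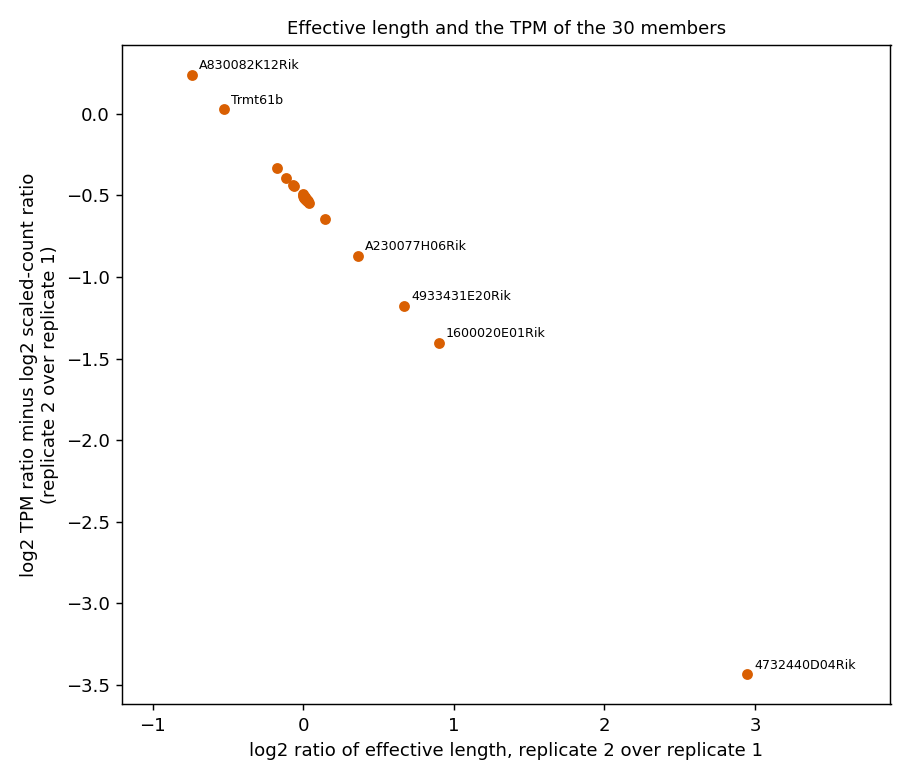
Difference between the log2 TPM ratio and the log2 scaled-count ratio of the 30 members (y axis) against the log2 ratio of their effective lengths (x axis), all replicate 2 over replicate 1. Most members sit at 0 on the x axis and near the shared shift of −0.52, and 4732440D04Rik lies farthest to the right.

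Among 30 antisense and divergent RNAs known from neural and imprinted loci, 28 were in the tables and 13 had the type antisense, of which only Kcnq1ot1 was a member. In all, 9 of the list reached 1 TPM in both libraries and 5 had 0 counts in both. The imprinted antisense RNAs Airn (71 and 214 counts) and Nespas (52 and 175) were under the 300 counts, as were the Hox antisense RNAs Hotairm1 (4 and 12), Hoxaas3 (1 and 13) and Hoxb3os (18 and 96). Mir9-3hg, a neural microRNA host typed as intergenic, had 40.06 and 31.36 TPM, near the level of Tug1.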

How the data were processed

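The deposited tables hold expected counts per gene and transcript for 2 libraries, which are estimated counts that need not be whole. The deposited TPM values divide them by effective length, per the file headers, and the deposited percent column is a transcript's part of the TPM of its gene. The deposited FPKM values were not used. Posterior standard deviations and interval bounds for TPM are also deposited. Per the deposited file notes the build is mm10 with GENCODE M4. No aligner or quantifier is named in these sources. GENCODE M21 supplied types, positions and exons for 42462 genes (98.0%) by Ensembl identifier.

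Depth was 54313140 and 77142270 counts. Expected counts were rounded, scaled with TMM in edgeR 4.0.16 (R 4.3.3) and compared as log2 values with a prior count of 2, and DESeq2 1.42.0 size factors served as an alternative. No model was fitted. The ratio step was tested on simulated data. The floor of 3 counts and the counting standard errors cover counting error only, since reads carry no molecular identifiers. The host is the coding gene with the longest overlap on the other strand. All 30 members are named, each with its host, and sequence windows were limited to 4. The members and lists were chosen with earlier results of these data known. Windows with annotated untranslated sequence of a coding gene are not shown. A marker gene on the list is not reported here.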

Additional observations from a re-analysis of the deposited data

How the results depend on the processing

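The number of members followed the minimum: 93 antisense genes had a mean count of at least 100, 8 had at least 1000, and with 1 library left out the number ranged from 25 to 38. With the minimum of 100, 86 overlapped a coding gene and 31 of 93 were past 1.5-fold between libraries, against 11.9% of all autosomal genes with that minimum. Those sets were not matched for count. Past 2-fold were 0 of 30, and 15 were past 1.5-fold when TPM replaced scaled counts. With no minimum count, 3 hosts were past 1.5-fold. The median log2 TPM ratio of antisense to host was −1.37 to −1.28 with 1 library left out, −1.07 with a pseudocount of 1, −1.36 with the host of highest TPM, −1.48 over hosts with at least 10 counts and −0.65 for counts per 1 kb of exon. Settings chosen after seeing the data were TPM in place of scaled counts, counts per 1 kb, the band of 300 to 2000 counts and, as a whole, the count of coding starts within 1 kb on the other strand (16; 13 within 500 bases, 18 within 2 kb, 17 from the transcript with the most counts). TMM, DESeq2 size factors, total counts and a prior count of 0.5 moved no member's log2 ratio by more than 0.003. The setting with only member and host pairs that share no exon bases was not run, since all 29 share some. No paired analysis was possible because there is 1 group. The causes of these changes were not tested, except where a setting changes the genes counted.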
